A study of Arabidopsis thaliana with 6 samples.

Results

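The HECATE genes HEC1 (AT5G67060), HEC2 (AT3G50330) and HEC3 (AT5G09750) and SPATULA (SPT, AT4G36930) encode basic helix-loop-helix (bHLH) transcription factors of Arabidopsis thaliana. They were taken by locus code from a table of 20777 loci measured on ATH1 oligonucleotide arrays. Of the 4 listed genes, 2 had a row, HEC1 and SPT, and the other 2, HEC2 and HEC3, were not analysed here. The genes were chosen by name with their values on these arrays, and so their difference between the groups, already known, so their own values are given as a description, with no test. The series has 6 arrays in 2 groups of 3. The first group holds Col-0 plants that overexpress the growth-regulating factor gene GRF5 from the 35S promoter (35S::GRF5), and the second holds wild-type Col-0 plants. Every sample is RNA of the vegetative part of seedlings at growth stage 1.03, raised on MS medium at 22 °C in days of 16 h light and 8 h dark. The 35S promoter is active in most plant tissues, so GRF5 transcript in this line is not limited to the cells that normally make it. The labels do not say how many independent transformants the line stands for or how many plants were pooled. They call the samples biological repeats.

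Proteins of the bHLH class bind DNA as dimers, usually at E-box sequences, and their effect depends on the partner. HEC proteins dimerise with SPT, and together they are best known for forming the stigma, style and transmitting tract of the gynoecium, where they link auxin transport to cytokinin response. In the shoot, HEC1 acts in the meristem on the balance between stem cells and differentiation, HEC proteins bind PHYTOCHROME INTERACTING FACTORs (PIFs) and limit their action in seedlings exposed to light, and SPT restrains the growth of cotyledons and leaves. GRF5 promotes cell proliferation in leaves, and the series title places the overexpressing line among several with larger leaves.

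The values are log2 expression values, and differences give 35S::GRF5 minus wild type throughout. GRF5 (AT3G13960) read 11.34, 11.42 and 12.08 in 35S::GRF5 replicates 1 to 3, against 4.73, 4.75 and 4.26 in wild-type replicates 1 to 3, in the direction of the labels. Of all loci, 160 (0.77%) passed limma at a Benjamini-Hochberg adjusted p under 0.05, 59 of them higher (0.284%) and 101 lower (0.486%). With each array centred on its median, 45 were higher and 126 lower. Trend and robust estimation gave 116 higher and 136 lower, and leaving out 35S::GRF5 replicate 1 gave 99 higher and 87 lower. Leaving out wild type replicate 2 gave 23 higher and 73 lower. The balance of directions thus depended on the processing and on single arrays. An unadjusted p under 0.05 was reached by 15.5% of loci, 9.49% higher and 5.97% lower. The groups did not overlap at 21.7% of loci, with 35S::GRF5 higher at 13.2% and lower at 8.45%. The tissue label was set against marker genes. The 6 measured leaf markers, photosynthesis genes such as RCA and PSBO1, had a mean of 13.6 to 13.7 in the 35S::GRF5 arrays and of 13.6 to 13.7 in the wild-type arrays. The 12 floral and gynoecium markers, among them AG, SHP1, CRC and STK, had a mean of 4.14 to 4.28 in 35S::GRF5 and of 4.12 to 4.27 in wild type. The 12 root markers had a mean of 5.31 to 5.46 in 35S::GRF5 and of 5.35 to 5.37 in wild type. Root marker genes ranged widely, from 3.72 to 11.3 in their means over all arrays. The highest was PYK10, at 11.31 to 11.77 in 35S::GRF5 and 11.10 to 11.24 in wild type, and GL2, which is also a trichome gene, was at 7.09 to 7.28 in 35S::GRF5 and 7.49 to 7.61 in wild type. These levels come from different probes, so they describe the samples and do not measure tissue shares, and the part of root tissue in the results was not tested. No marker of the 3 lists passed limma, and 6 of the 30 had an unadjusted p under 0.05.

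HEC1 was higher in the GRF5-overexpressing line. It read 5.55, 5.21 and 5.0 in 35S::GRF5 replicates 1 to 3, against 4.52, 4.57 and 4.54 in wild-type replicates 1 to 3. All 3 arrays of the line lay above all 3 wild-type arrays, with a gap of 0.43 between the lowest 35S::GRF5 value and the highest wild-type value. The means were 5.25 ± 0.28 in 35S::GRF5 and 4.54 ± 0.02 in wild type (log2 mean ± SD, n = 3 each). The difference was 0.71 log2 units with a standard error of 0.13, a 1.64-fold higher level, or 1.49- to 1.79-fold within 1 standard error. A larger positive difference was found at 0.168% of all loci, and groups separated in the higher direction at 13.2% of loci. Since HEC1 was chosen with this contrast known, nothing is read from its place among them.

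HEC1 varied more between the samples of the line than between the wild-type samples. Relative to the wild-type mean, HEC1 was 2.01-fold in 35S::GRF5 replicate 1, 1.59-fold in replicate 2 and 1.37-fold in replicate 3. Its SD in 35S::GRF5 was 11.2 times that in wild type, a ratio that rests on a wild-type SD of 0.02 from 3 arrays. Over all loci the median SD was also larger in 35S::GRF5, at 0.128 against 0.0969 in wild type. At 91.7% of loci the SD in 35S::GRF5 was smaller than that of HEC1, and at 5.27% of loci the SD in wild type was smaller. The array with the highest HEC1 value, 35S::GRF5 replicate 1, was also the one farthest from its group mean over all loci, with a root mean square deviation of 0.162 against 0.101 to 0.138 in the other 5 arrays. Of the 2752 loci at which all 35S::GRF5 arrays lay above all wild-type arrays, 47% had their highest value in that array, 34.2% in replicate 2 and 18.8% in replicate 3. Without 35S::GRF5 replicate 1 the HEC1 difference was 0.56, and over the 6 fits that each leave out an array it ran from 0.56 to 0.84.

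SPT, the dimer partner of HEC1, differed by about 1 standard error between the groups. It read 4.84, 4.82 and 5.05 in 35S::GRF5 replicates 1 to 3, against 4.74, 4.98 and 4.59 in wild-type replicates 1 to 3. The groups overlapped, since wild-type replicate 2 lay above 2 of the 3 arrays of the line. The means were 4.90 ± 0.13 in 35S::GRF5 and 4.77 ± 0.19 in wild type (log2 mean ± SD, n = 3 each). The difference was 0.13 with a standard error of 0.12, a factor of 1.10, and 24.5% of all loci had a larger positive difference. Leaving out the array of replicate 3 gave 0.04 when it was the wild-type one and 0.06 when it was that of the line, and leaving out wild type replicate 2 gave 0.24, so its size depended on single arrays. These data do not show that SPT was unchanged.

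**Figure D1:**
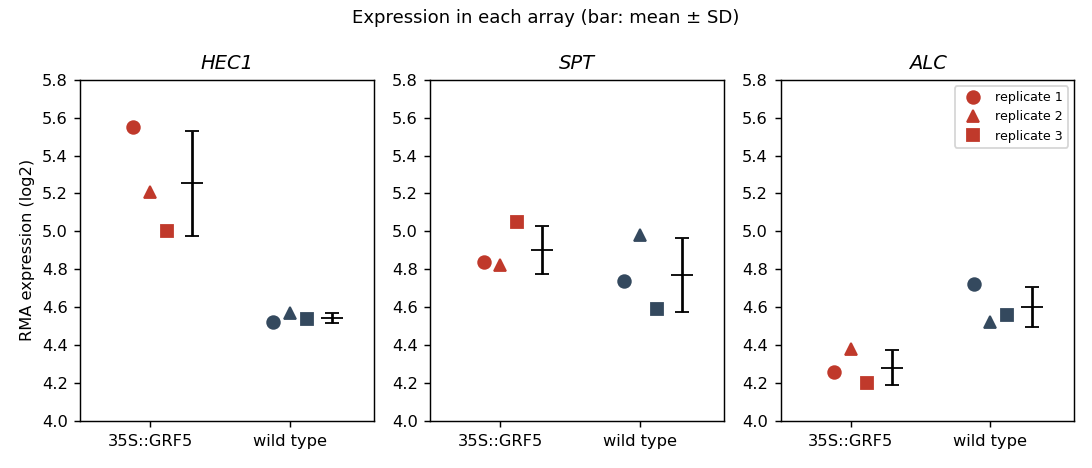
Log2 expression (y axis) of HEC1, SPT and the SPT relative ALC in each 35S::GRF5 array (left) and wild-type array (right); symbols mark replicate numbers and bars the mean ± SD. All HEC1 values of 35S::GRF5, from 5.0 upwards, lie above those of wild type, the SPT groups overlap, and all ALC values of 35S::GRF5, up to 4.38, lie below those of wild type.

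**Figure D2:**
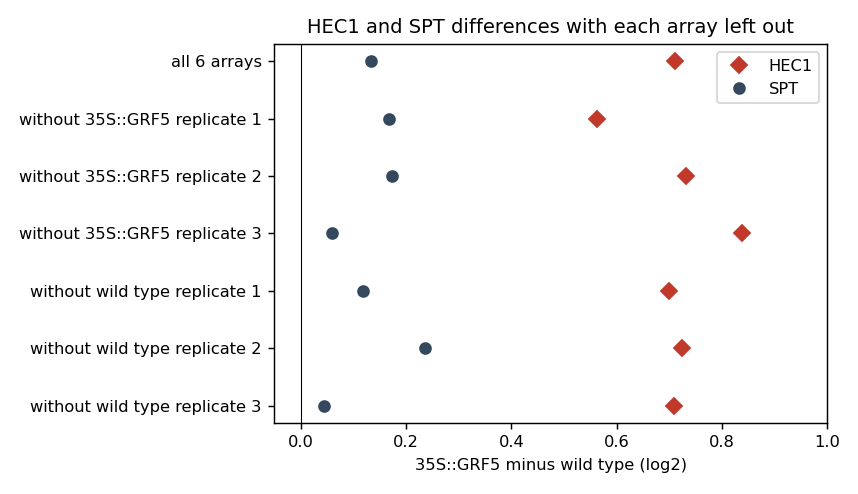
Difference of HEC1 and SPT (x axis, 35S::GRF5 minus wild type, log2) over all 6 arrays and with each array left out in turn (y axis). HEC1 stays between 0.56 and 0.84 and SPT between 0.04 and 0.24.

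Both transcripts gave values in the lower part of the array's range. The mean over 6 arrays exceeded that of 32.7% of all loci for HEC1 and that of 32.0% for SPT. No detection calls were used, so part of a value this low cannot be told apart from background signal. The same limit holds for genes below at like or lower levels, ALC among them. Levels of different genes are not compared, because probes differ in affinity. In RNA of a whole tissue, more cells of the kind that make a transcript cannot be told apart from more transcript per cell, which applies to HEC1 and to each gene below.

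**Figure D3:**
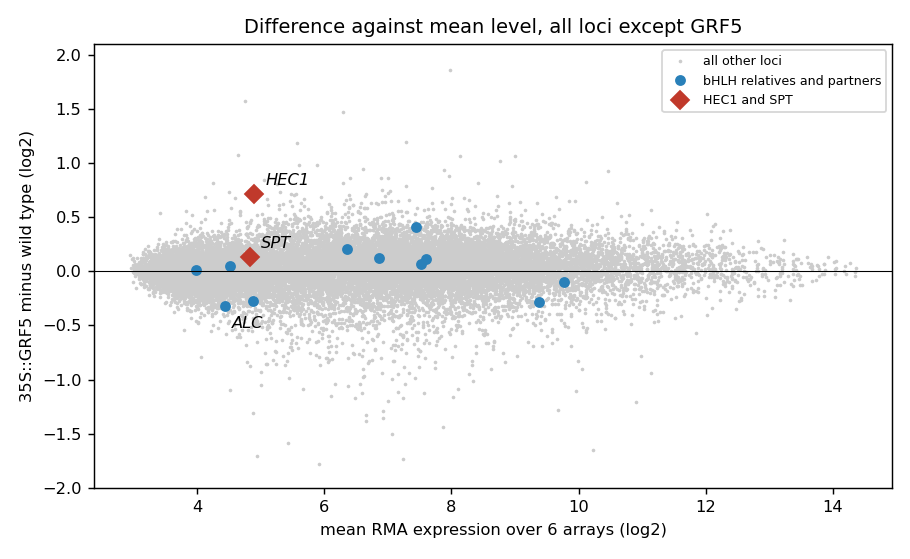
Difference between the groups (y axis, 35S::GRF5 minus wild type, log2) against the mean log2 level over 6 arrays (x axis) for all loci other than GRF5, with HEC1 and SPT as diamonds and 11 bHLH relatives and partners as blue points. HEC1, at 0.71, lies above most loci of like level, SPT, at 0.13, lies within it, and ALC, at -0.32, lies towards its lower edge.

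The other bHLH genes around HEC and SPT were examined next, in a list of 19 that held close relatives, dimer partners and members of neighbouring bHLH groups. Of these, 11 were measured under the listed name, 0 passed limma over all loci, and 4 had an unadjusted p under 0.05, 1 higher and 3 lower, beside 9.49% and 5.97% of all loci. Their median difference was 0.05, beside 0.024 for all loci. With 0.77% of all loci called, 0 calls among so few genes is not read as a result, here or in the lists below. ALCATRAZ (ALC, AT5G67110), the closest relative of SPT, which acts with it in the fruit, read 4.26, 4.38 and 4.20 in 35S::GRF5 replicates 1 to 3, against 4.72, 4.52 and 4.56 in wild-type replicates 1 to 3. Every array of the line was below every wild-type array, as at 8.45% of all loci, opposite in sign to HEC1. The difference was -0.32 with a standard error of 0.09, and limma's adjusted p was 0.157, so the call was not made. INDEHISCENT (IND), which also dimerises with SPT, and PIF7 were not analysed here.

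Of the PIFs, which promote elongation in shade and darkness, PIF4 differed by -0.28 with an unadjusted p of 0.0472 from limma (adjusted p = 0.317). Its values were 9.0, 9.20 and 9.50 in 35S::GRF5 and 9.56, 9.47 and 9.52 in wild type, so replicate 3 of the line lay within the wild-type range, and leaving out replicate 1 of the line gave -0.17. PIF1, PIF3 and PIF5 differed by 0.07, 0.12 and -0.10 with adjusted p from limma of 0.815, 0.573 and 0.743, and the size of none of the 3 held with single arrays left out. PIF1 ran from -0.027 without 35S::GRF5 replicate 1 to 0.14, PIF3 was at 0.06 without that array and at 0.08 without wild type replicate 3, and PIF5 ran from -0.21 without 35S::GRF5 replicate 1 to -0.02 without wild type replicate 3. PAR1, an atypical bHLH that limits shade responses and does not bind DNA by itself, differed by 0.41 (adjusted p = 0.184) and its groups overlapped. RSL4, a bHLH of root hair growth, differed by -0.28 (adjusted p = 0.3). HFR1, which also restrains PIFs, was at 7.08 in 35S::GRF5 replicate 1 and at 6.07 and 6.25 in the other 2 arrays of the line, against 6.11 to 6.52 in wild type. Its difference was 0.20 with a standard error of 0.23 (limma adjusted p = 0.724), and it was named after its values were seen.

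Type-A response regulators are quickly induced by cytokinin and dampen its signalling, and type-B regulators such as ARR1 are transcription factors that carry the signal. SPT activates ARR1 in the gynoecium, and HEC factors act on type-A genes. Of 13 response regulators measured, 10 of type A and 3 of type B, 0 passed limma and 3 had an unadjusted p under 0.05, all of them higher, beside 9.49% of all loci. The median difference was 0.21, beside 0.024 for all loci. ARR8 (AT2G41310, type A) read 6.41, 6.21 and 6.26 in 35S::GRF5, against 5.69, 5.84 and 5.31 in wild type, a difference of 0.68 with a standard error of 0.14 (limma adjusted p = 0.0574). ARR16 (type A) read 5.70, 5.98 and 5.89 in 35S::GRF5, against 5.36, 5.42 and 5.37 in wild type, a difference of 0.47 with a standard error of 0.10 (limma adjusted p = 0.0666). In both genes every array of the line was above every wild-type array, as also in ARR4 and ARR9, so 4 of the 13 separated upwards, beside 13.2% of all loci. ARR12 (type B) was the 1 that separated downwards, beside 8.45% of all loci, with 7.98, 8.11 and 7.94 in 35S::GRF5 and 8.20, 8.15 and 8.20 in wild type, a difference of -0.17 (limma adjusted p = 0.377); it was named after its values were seen. ARR4 differed by 0.44 (limma adjusted p = 0.116) and ARR9 by 0.21 (0.335). The groups overlapped in the other type-A genes, which were named after their values were seen. ARR6, ARR7 and ARR15 differed by 0.39, 0.24 and 0.22, and ARR3, ARR5 and ARR17 by -0.002, -0.04 and 0.06. The list was chosen with earlier results of these data known. Its counts and median are thus a description and not a result about the list. ARR8 passed limma with trend and robust estimation (adjusted p = 0.0393) and with array weights (0.046). ARR16 passed with array weights (0.0252) or when 35S::GRF5 replicate 1 was left out (0.0355). Each gene missed the threshold in all other settings. With an array left out, limma's adjusted p ran from 0.0561 to 0.182 for ARR8 and from 0.0355 to 0.248 for ARR16. With replicate as a block it was 0.0729 for ARR8 and 0.102 for ARR16. The array that was highest for HEC1 was the lowest of the line for ARR16. ARR1 differed by -0.07 (limma adjusted p = 0.768), and its values of 6.72 to 6.80 in 35S::GRF5 overlapped those of 6.76 to 6.91 in wild type; without wild type replicate 1 it differed by -0.03, and without wild type replicate 2 by -0.098.

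**Figure D4:**
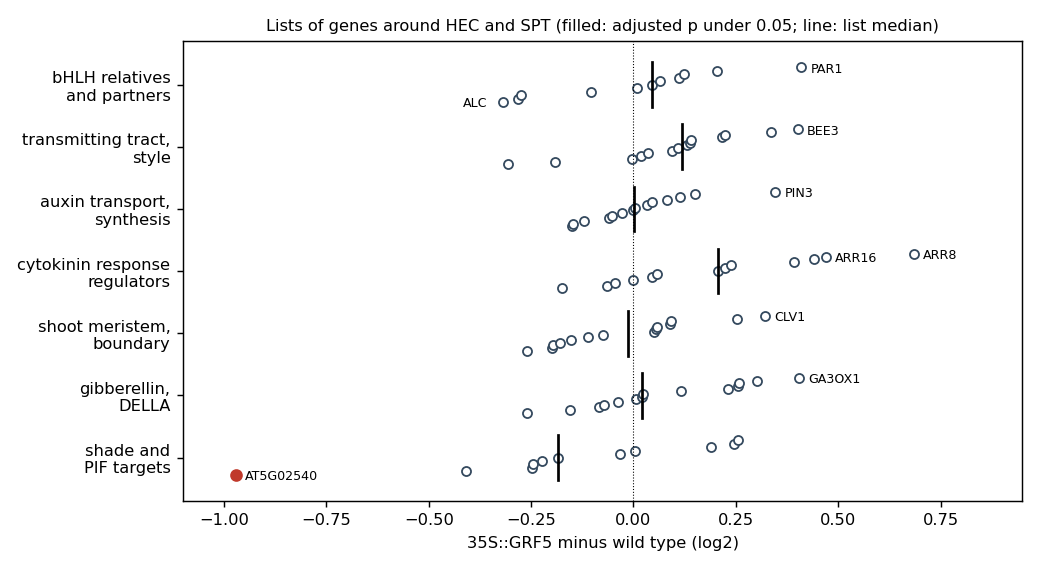
Differences (x axis, 35S::GRF5 minus wild type, log2) of the measured genes in 7 lists around HEC and SPT (y axis); each circle is a gene, a filled circle has an adjusted p under 0.05 over all loci and a line marks the list's median. The filled circle is AT5G02540 at -0.97, and the largest positive difference is that of ARR8 at 0.68.

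Genes that work with HEC and SPT in the style and transmitting tract, many of which are also active in leaves, gave no call. Of 14 measured, 0 passed limma, beside 0.77% of all loci, and 1 had an unadjusted p under 0.05, in the higher direction, beside 9.49% of all loci. The median difference was 0.12, beside 0.024 for all loci. The gene under the unadjusted threshold was BEE3, a brassinosteroid-induced bHLH of the transmitting tract, which differed by 0.40 (limma adjusted p = 0.257) with overlapping groups. SEU, a transcriptional co-regulator, was the 1 gene of the 14 whose groups did not overlap, beside 21.7% of all loci. It separated upwards with values of 8.31 to 8.59 in 35S::GRF5 and 8.12 to 8.25 in wild type. The SEU difference was 0.22 (limma adjusted p = 0.333), or 0.13 without 35S::GRF5 replicate 1. The NGATHA genes NGA3 and NGA2, B3-domain factors of style and leaf margin, differed by 0.34 and -0.31 (limma adjusted p = 0.358 and 0.434). NGA3 differed by 0.18 without wild type replicate 3 and by 0.19 when replicate 1 of the line was left out, and NGA2 by -0.47 or -0.10 when replicate 1 or 2 of the line was left out. STY1 was not analysed here.

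Auxin transport and synthesis genes, among them targets of SPT, IND and HEC, gave no gene past either threshold. Of 14 measured, 0 passed limma and 0 had an unadjusted p under 0.05, beside 0.77% and 15.5% of all loci. With so few genes these counts are not read as a result about the list. The 14 differences ran from -0.15 to 0.35 with a median of 0.0003, beside 0.024 for all loci. PIN3, an auxin efflux carrier, read 9.16, 9.67 and 9.69 in 35S::GRF5, against 9.38, 9.01 and 9.09 in wild type, a difference of 0.35 with a standard error of 0.16 (limma adjusted p = 0.325). The line's replicate 1, highest for HEC1, was within the wild-type range for PIN3, and without it the difference was 0.52. Leaving out any other array gave a PIN3 difference of 0.253 to 0.455. PIN4, also a carrier, differed by 0.15 (limma adjusted p = 0.487), TAA1, an enzyme of auxin synthesis that SPT activates in the gynoecium, by -0.15 (0.455), and YUC8, of the next step of that synthesis, by -0.15 (0.516), or by -0.08 without wild type replicate 2 and -0.098 without the line's replicate 2. TAA1 was the 1 gene of the list whose groups did not overlap, beside 21.7% of all loci.

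Shoot meristem and boundary genes were of interest because HEC1 acts in the meristem. Of 14 measured, 0 passed limma and 4 had an unadjusted p under 0.05, 2 higher and 2 lower, beside 9.49% and 5.97% of all loci. The median difference was -0.01, and 1 gene separated upwards and 3 downwards, beside 13.2% and 8.45% of all loci. CLV1, the receptor kinase that restricts stem cell number, read 9.52, 9.36 and 9.30 in 35S::GRF5, against 9.11, 9.06 and 9.05 in wild type, and its difference of 0.32 had an adjusted p of 0.148 in limma. MP, an auxin response factor, differed by 0.25 (limma adjusted p = 0.311). KNAT1, a KNOX homeodomain factor, and CUC1, a boundary factor, differed by -0.26 and -0.20 (limma adjusted p = 0.244 and 0.321), each with all arrays of the line below all wild-type arrays. WUS, STM and CLV3 differed by -0.15, -0.11 and -0.20 (limma adjusted p = 0.471, 0.705 and 0.481). WUS too had all arrays of the line below all wild-type arrays, and these 3 were named after their values were seen. Every value of KNAT1, CUC1, WUS and CLV3 lay between 3.59 and 4.65. At levels this low, part of a value cannot be told apart from background signal, so these separations are not read as lower expression.

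SPT is linked to gibberellin through the synthesis gene GA3OX1, which it represses in seeds, and through DELLA proteins, which restrain growth alongside it. Of 14 gibberellin genes measured, 0 passed limma and 4 had an unadjusted p under 0.05, 3 higher and 1 lower, beside 9.49% and 5.97% of all loci. The median difference was 0.02, and 3 genes separated upwards and 1 downwards, beside 13.2% and 8.45% of all loci. GA3OX1 read 7.57, 7.50 and 7.39 in 35S::GRF5, against 7.21, 6.94 and 7.09 in wild type, a difference of 0.41 with a standard error of 0.10 (limma adjusted p = 0.105). GA20OX1, of an earlier step of synthesis, differed by 0.26 (limma adjusted p = 0.273). The DELLA genes GAI and RGL3 differed by -0.26 and 0.26 (limma adjusted p = 0.26 and 0.298), GAI with groups that did not overlap.

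Shade-responsive genes and PIF targets held the 1 call of the 7 lists. Of 11 measured, AT5G02540 fell, and 4 had an unadjusted p under 0.05, 2 of them higher and 2 lower, beside 9.49% and 5.97% of all loci. The median difference was -0.185, and 2 genes separated upwards and 4 downwards, beside 13.2% and 8.45% of all loci. AT5G02540 read 5.96, 6.25 and 6.22 in 35S::GRF5, against 7.27, 7.22 and 6.85 in wild type, a difference of -0.97 with a standard error of 0.13 (limma adjusted p = 0.0138). Leaving out wild type replicate 1 ended the call (adjusted p = 0.0849), which held in the 5 other fits that leave out an array. HB-2 (ATHB2), a homeodomain gene quickly induced by shade, differed by -0.41 (limma adjusted p = 0.168), with 6.35 to 6.47 in 35S::GRF5 and 6.55 to 7.06 in wild type. HAT3, of the same homeodomain class, and IAA19, an auxin-induced repressor gene, differed by 0.26 and 0.24 (limma adjusted p = 0.185 and 0.273), so the list was divided in sign. A count of 1 in 11 beside 0.77% of all loci rests on a single gene. The list was chosen with earlier results of these data known, so its call is a description and not a result about the list.

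The loci whose values over the 6 arrays were most like those of HEC1, by Pearson correlation, were AT4G37280 (0.998), AT1G74250 (0.996) and HEN2 (0.995), an RNA helicase gene. These 6 points share the separation between the groups, and 779 loci had a correlation with HEC1 above 0.9. AT4G37280, AT1G74250 and HEN2 differed by 0.39, 0.50 and 0.24 (limma adjusted p = 0.11, 0.0725 and 0.234). The loci most like SPT were AT3G23390 (0.986), CARA (0.980), which encodes the small subunit of carbamoyl phosphate synthetase, and AT3G02640 (0.979), and 109 loci exceeded 0.9. Those 3 differed by 0.11, 0.05 and 0.09 (limma adjusted p = 0.732, 0.833 and 0.716). With so few arrays such rankings are a description of these samples.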

How the data were processed

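Per the submitters' processing notes, the authors used RMA, of unstated version, for the deposited log2 values; the table has 1 value per locus and array. RMA corrects background, equalises arrays and summarises probes. The map from probes to loci and the set of arrays normalised together are not given in the sources used here. Names came from a RefSeq table of TAIR10.1, which held 20508 of the 20777 locus codes. Groups were compared on all loci with limma 3.58.1 in R 4.3.3 (lmFit, eBayes, two-sided). P-values were adjusted over the whole table by Benjamini-Hochberg, with a threshold of 0.05 and no filter on low values. There is no count behind a value, so the 3 arrays per group limit the precision: the median 95% interval reached 0.23 log2 units to either side. Scripts were tested on simulated data.

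The members, the 7 lists and the 3 marker lists were chosen with earlier results of these data known. Of the listed names, 3 did not match the reference and were left out. Genes were named by rule: called genes, up to 4 per list with the smallest p, and the main bHLH partners with ARR1. For likeness, the 3 highest correlations were named. HFR1, ARR3, ARR5, ARR6, ARR7, ARR12, ARR15, ARR17, WUS, STM and CLV3 were named outside the rule, after their values were seen. Alternatives were a replicate block, a filter at the 25th percentile, centring, quantile normalization, trend and robust estimation, array weights and leaving out each array. No sequence table was used here, so no sequences are shown.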

Additional observations from a re-analysis of the deposited data

How the results depend on the processing

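The difference of HEC1 stayed within 1 SD of its value of 0.71 in every alternative run, at 0.67 with arrays centred on their medians, 0.64 with array weights and 0.56 to 0.84 with an array left out. That of SPT stayed positive, at 0.09 after centring and 0.04 to 0.24 with an array left out. Over all loci, limma called 160, against 252 with trend and robust estimation and 294 with array weights. Leaving out an array gave 17 to 186. The count was 63, 69 and 186 on omitting the line's replicate 2, 3 or 1, and 17, 96 and 50 on omitting the wild-type replicate 1, 2 or 3; such fits have fewer samples, and the cause of the differences between them was not tested. The cytokinin list held 0 calls, but 1 with trend and robust estimation, 2 with array weights and 0 to 1 with an array left out. The shade list held 1 call, and 0 to 1 with an array left out. PIF1, at 0.07 over all arrays, ran from -0.027 without 35S::GRF5 replicate 1 to 0.14 without its replicate 2; the cause was not tested. Deviations of same-numbered arrays of the 2 groups correlated at -0.05, 0.06 and -0.11, and those of differently numbered arrays at -0.08 to 0.11. No pairing by replicate number was seen, which does not settle whether the samples were paired. A fit with replicate as a block called 114 loci. Alternatives for HEC2 and HEC3 were not run. Small differences at low signal cannot be separated from background.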

Other observations

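The neighbours of HEC1 and SPT on their chromosomes, in the order of the reference table, were looked up after the data were seen. The genes on either side of HEC1, AT5G67050 and RALFL34, which encodes a rapid alkalinization factor-like peptide, differed by 0.21 and 0.14 between 35S::GRF5 and wild type (limma adjusted p = 0.412 and 0.53), and both had overlapping groups. The next genes outwards from HEC1, AT5G67040 and MAPKKK19, differed by 0.08 and -0.14 (limma adjusted p = 0.75 and 0.584), also with overlapping groups. ALC lies 5 protein-coding genes from HEC1. AP2, a floral and meristem regulator 2 protein-coding genes from SPT, read 6.03, 5.45 and 5.70 in 35S::GRF5 replicates 1 to 3, against 6.31, 6.27 and 6.15 in wild-type replicates 1 to 3. All AP2 values of the line were below those of wild type, as at 8.45% of all loci. The AP2 difference of -0.52 with a standard error of 0.14 had an adjusted p of 0.124 in limma. NAPRT1, the gene on the other side of SPT, differed by -0.13 (limma adjusted p = 0.716).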
